A study of Mus musculus with 6 samples.

Results

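Clade B serpins are intracellular members of the serpin family of protease inhibitors. The 10 genes described here, *Serpinb1a*, *Serpinb2*, *Serpinb3a*, *Serpinb5*, *Serpinb6a*, *Serpinb8*, *Serpinb9*, *Serpinb10*, *Serpinb11* and *Serpinb12*, were chosen by name out of 47643 gene IDs counted, and all 10 had counts and passed the filter on low counts. Their RNA was counted in organoids of the mouse submandibular salivary gland (mSGOs), multicellular structures that single gland cells form in Matrigel. The donors were 3 female C57BL/6 mice of 8-12 weeks. Organoids of each mouse were collected on day 5 and on day 7, giving 3 libraries per day. All organoids were untreated, non-irradiated controls kept in WRY medium, which contains EGF, FGF2, insulin, dexamethasone, Y27632 and Wnt3a- and R-spondin1-conditioned medium. Polyadenylated RNA was read from the 3′ end of each transcript with the Lexogen QuantSeq kit, and values are given as CPM, counts scaled to a common library total and not divided by gene length.

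A serpin presents an exposed loop to a protease as bait. Once the loop is cut, the serpin snaps into another shape and holds the protease in a covalent, inactive complex. Clade B serpins lack a classical secretion signal, act mostly inside cells, and are known from leukocytes and from stratified and glandular epithelia, where they guard against proteases that leak from lysosomes or granules. A few, maspin (*Serpinb5*) among them, do not inhibit proteases.

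The clade B serpins did not share a direction between day 5 and day 7. *Serpinb11* rose from 11.5 ± 2.70 to 94.2 ± 52.8 CPM (SD, n = 3), and *Serpinb12* appeared, from 1 count in all day 5 libraries to 43 counts at day 7. *Serpinb1a*, *Serpinb3a* and *Serpinb9* also rose, while *Serpinb5* fell. The 4 others, *Serpinb2*, *Serpinb6a*, *Serpinb8* and *Serpinb10*, did not pass the threshold, which was a Benjamini-Hochberg adjusted p under 0.05 in edgeR and an absolute log2 fold change over 0.6. Thus 5 members were higher and 1 was lower, beside 7.22% of the 15792 genes tested that were higher and 4.82% that were lower (12.0% in either direction). The median log2 fold change was 0.61 over the members and -0.01 over all genes tested. The libraries of the 2 days did not overlap for 6 of the 10 members, against 30.9% of all genes tested. Of these 6, 4 were higher and 2 lower at day 7. The members were chosen with earlier results of these data known, so these shares are a description and no test of the family.

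**Figure D1:**
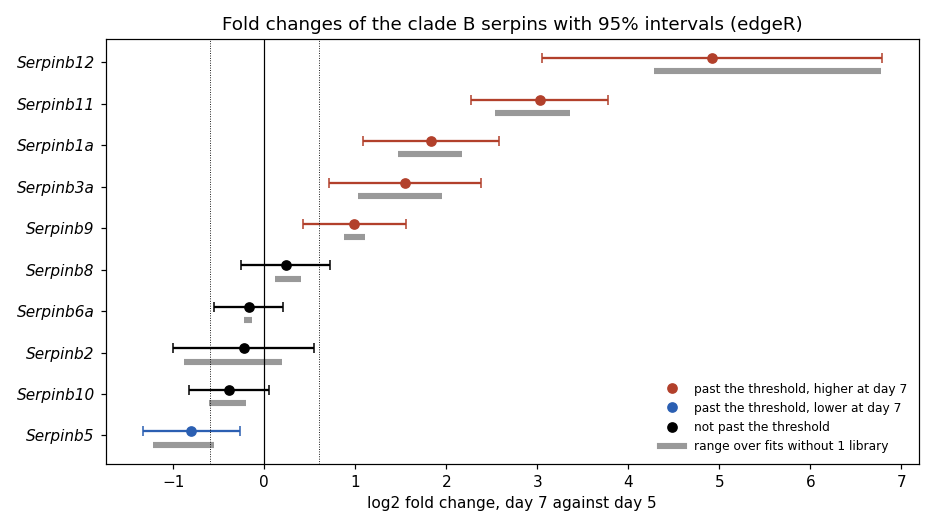
Log2 fold change of each member at day 7 against day 5 (x axis) with its 95% interval, and as grey bars the range of the estimate when 1 of the 6 libraries was left out; dotted lines mark 0.6 on either side of 0. *Serpinb12*, *Serpinb11* and *Serpinb1a* stayed above 1.4 in every such fit, while the bar of *Serpinb2* crossed 0.

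The members lie in 2 clusters, given here in GRCm39 coordinates of the GENCODE vM39 annotation. On chromosome 1, 7 members span 750 kb, in the order *Serpinb5* (106788875 to 106811078), *Serpinb12* (106859355 to 106884814), *Serpinb3a* (106973317 to 106980033), *Serpinb11* (107288928 to 107308208), *Serpinb2* (107428593 to 107463208), *Serpinb10* (107456757 to 107477001) and *Serpinb8* (107517700 to 107539280). On chromosome 13, *Serpinb1a* (33026042 to 33035224), *Serpinb9* (33187233 to 33201940) and *Serpinb6a* (34100229 to 34186812) span 1161 kb. Rises were found in both clusters, 3 of 7 members on chromosome 1 and 2 of 3 on chromosome 13, beside 7.22% of all genes tested. The only fall, that of *Serpinb5*, was at the outer edge of the chromosome 1 cluster, next to *Serpinb12*, which rose. At the other edge, *Serpinb2*, *Serpinb10* and *Serpinb8* are neighbours and none of them passed the threshold.

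**Figure D2:**
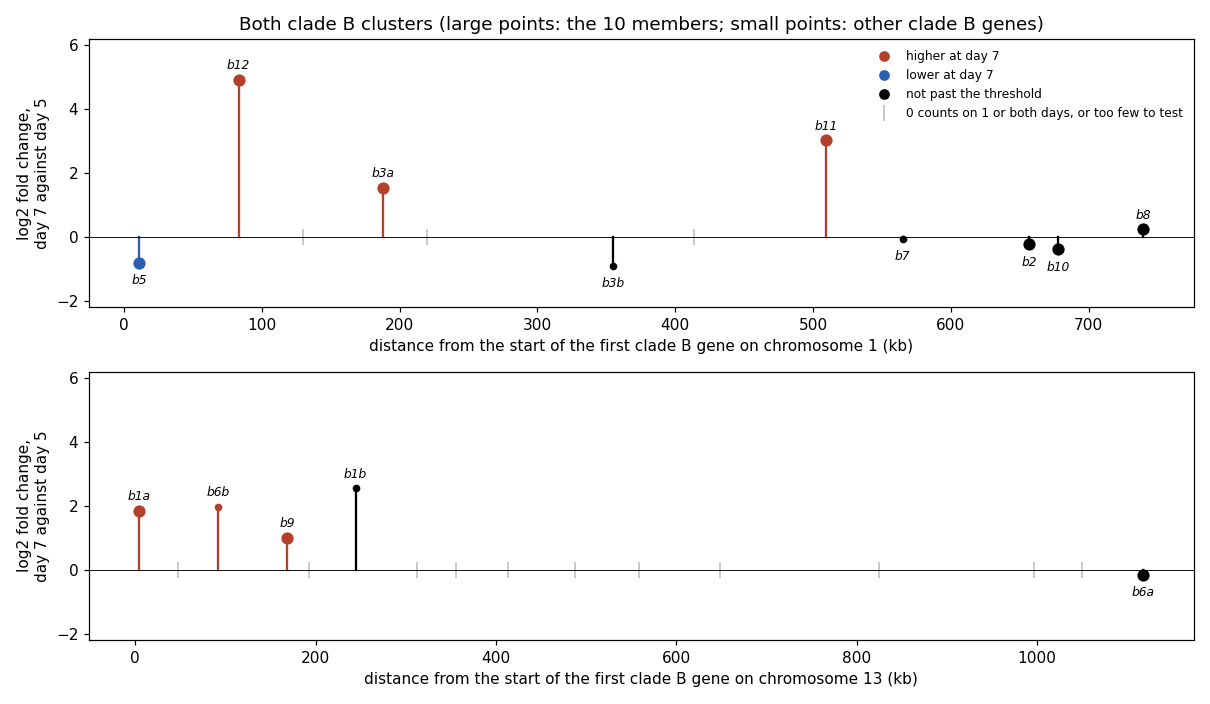
Log2 fold change at day 7 against day 5 (y axis) of the clade B genes by distance in kb along chromosome 1 (top) and chromosome 13 (bottom). *Serpinb5* at -0.80 stands beside *Serpinb12* at 4.92, and the 3 members farthest right on chromosome 1 lie between -0.39 and 0.23.

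The 250 bases before the transcription start are shown for 5 members of the chromosome 1 cluster, because these neighbours differed in direction: *Serpinb11*, *Serpinb12* and *Serpinb3a* rose, *Serpinb5* fell and *Serpinb10* did not pass the threshold. They are RefSeq sequences of build GRCm38.p6, so their coordinates differ from those of GRCm39 above, and each is written 5′ to 3′ on the strand of the gene. Capitals mark matches to TGANTCA, a loosened form of the site of AP-1, a factor of stress and epithelial differentiation genes. The AP-1 site itself is TGAGTCA, or TGACTCA on the other strand, and the loosened form allows any base at the centre. Both strands were searched in 300 bases around each start, 250 before and 50 after.
Serpinb11, chr1:107362064-107362313, plus strand: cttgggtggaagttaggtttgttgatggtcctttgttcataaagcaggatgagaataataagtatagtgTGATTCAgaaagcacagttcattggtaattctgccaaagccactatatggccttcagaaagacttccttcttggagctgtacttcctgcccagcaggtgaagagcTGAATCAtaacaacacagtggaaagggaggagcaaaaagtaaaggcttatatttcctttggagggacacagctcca
Serpinb12, chr1:106934199-106934448, plus strand: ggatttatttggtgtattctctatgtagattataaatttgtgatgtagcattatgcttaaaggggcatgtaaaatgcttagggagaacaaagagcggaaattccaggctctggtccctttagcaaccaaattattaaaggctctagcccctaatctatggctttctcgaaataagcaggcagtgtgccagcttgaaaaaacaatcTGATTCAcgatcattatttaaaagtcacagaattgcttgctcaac
Serpinb5, chr1:106860925-106861174, plus strand: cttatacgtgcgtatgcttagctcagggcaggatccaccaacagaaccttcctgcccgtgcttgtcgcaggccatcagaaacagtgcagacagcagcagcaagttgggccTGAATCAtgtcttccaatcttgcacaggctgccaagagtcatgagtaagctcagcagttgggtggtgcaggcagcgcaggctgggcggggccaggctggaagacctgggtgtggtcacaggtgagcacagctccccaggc
Serpinb10, chr1:107528753-107529002, plus strand: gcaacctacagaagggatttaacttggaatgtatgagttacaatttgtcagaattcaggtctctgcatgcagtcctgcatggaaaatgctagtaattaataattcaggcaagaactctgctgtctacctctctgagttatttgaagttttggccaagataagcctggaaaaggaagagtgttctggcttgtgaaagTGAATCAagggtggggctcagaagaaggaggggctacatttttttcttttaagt
Serpinb3a, chr1:107052304-107052553, minus strand: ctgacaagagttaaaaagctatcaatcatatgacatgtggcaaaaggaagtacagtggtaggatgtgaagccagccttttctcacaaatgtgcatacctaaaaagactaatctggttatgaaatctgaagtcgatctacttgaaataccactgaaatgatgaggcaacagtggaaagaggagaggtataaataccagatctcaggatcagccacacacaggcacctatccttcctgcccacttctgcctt
A match to the loosened form was present in 6 of the 9 members with a promoter entry, against 7.81% of 32851 promoters and 8.97% of 27025 genes. All 6 (*Serpinb2*, *Serpinb5*, *Serpinb8*, *Serpinb10*, *Serpinb11* and *Serpinb12*) lie on chromosome 1. *Serpinb11* held 2 matches, which begin at positions -181 and -76 from the start, and *Serpinb12* held 1, which begins at -45 in the entry shown, while its other promoter entry held none. *Serpinb3a*, *Serpinb6a* and *Serpinb9* held none, and *Serpinb1a* had no entry. Matches were thus found in front of members that rose (*Serpinb11*, *Serpinb12*), fell (*Serpinb5*) and did not pass the threshold (*Serpinb2*, *Serpinb8*, *Serpinb10*). The AP-1 site itself was present in 1 of the 9, *Serpinb8*, against 5.95% of genes, so all capitals shown have A or T at the centre. Matches describe letters and were not tested for binding.

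Libraries held 1918198 to 2837397 counts in genes, and 3 counts in a library corresponded to 1.06 to 1.56 CPM. Day 7 libraries varied more among themselves than day 5 libraries, with a biological coefficient of variation of 0.293 against 0.0903. Epithelial markers were high on both days (summed CPM of 8 genes 14434 to 18210 at day 5 and 11545 to 15989 at day 7). Of these, only *Krt8* passed the threshold, downwards (mean 109 and 69.2 CPM). Markers of other cells were low, apart from the calprotectin genes. Of the macrophage markers 9 of 12 were at 0 in all libraries, *Csf1r*, *Adgre1* and *C1qa* among them, and the sum of the list was 8.03 to 10.7 CPM at day 5 and 9.30 to 13.9 at day 7, with *Cd68* higher and *Cd14* not past the threshold. Of the T and NK cell markers 8 of 11 were at 0, *Cd3e* and *Nkg7* among them, and the list summed to 0.412 to 2.88 and 0.347 to 1.96 CPM. Of the neutrophil markers 6 of 10 were at 0, including *Mpo*, *Elane* and *Csf3r*. The neutrophil list summed to 121 to 152 CPM at day 5 and 193 to 516 at day 7, most of it from *S100a8* (mean 47.4 and 211 CPM) and *S100a9* (mean 83.2 and 147 CPM), which epithelia also express. Of its 3 genes tested, *S100a8* passed the threshold upwards. Endothelial markers (3 of 10 at 0) and fibroblast markers (4 of 10 at 0) summed to at most 2.94 CPM in any library. Squamous differentiation markers moved with the serpins that rose, since 7 of 13 passed the threshold upwards, beside 7.22% of all genes tested. Their sum was 3395 to 5226 CPM at day 5 and 5787 to 8717 at day 7. The part of these genes in the serpin results was not tested, and in whole organoids more cells of a kind and more RNA per cell cannot be told apart.

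Among the members known to inhibit trypsin-like proteases, *Serpinb11* (ENSMUSG00000026327), an epithelial serpin, measured 9.07, 11.05 and 14.4 CPM at day 5 in mice 1, 2 and 3, and 90.1, 149 and 43.6 CPM at day 7. Every day 7 library lay above every day 5 library, and mouse 3 showed the smallest change. The log2 fold change was 3.03 ± 0.36 (SE; edgeR adjusted p = 2.06e-05), with a 95% interval of 2.27 to 3.78. This was the smallest p among the members. The estimate was 2.53 to 3.36 when single libraries were left out and past the threshold each time.

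*Serpinb12* (ENSMUSG00000059956), another inhibitor of trypsin-like proteases known from surface epithelia, had 0, 0 and 1 counts at day 5 and 25, 11 and 7 counts at day 7. In CPM this was 0, 0 and 0.360 against 9.59, 3.82 and 3.43, and the days did not overlap. Its CPM over the 3 libraries were 41.1 times higher at day 7 by counting, with a 95% interval of 6.99 to 1659 for counting error only. In edgeR the log2 fold change was 4.92 ± 0.89 (adjusted p = 0.00123), a size that depends on the prior count. It was 4.28 without the day 7 library of mouse 1 and 6.77 without the day 5 library of mouse 3, which held the only day 5 count, and was past the threshold in each fit without 1 library. It stayed the lowest of the 10 members on both days.

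*Serpinb10* (ENSMUSG00000092572), or bomapin, first known from blood-forming cells and an inhibitor of thrombin and trypsin, was the most abundant member in each of the 6 libraries. It measured 423, 449 and 449.6 CPM at day 5 and 432, 335 and 243 CPM at day 7. The day 5 values were nearly level. At day 7 mouse 1 remained within the day 5 range while mice 2 and 3 lay below it, so the days overlapped. Its log2 fold change was -0.39 ± 0.21 (95% interval -0.82 to 0.05; edgeR adjusted p = 0.253). Without the day 7 library of mouse 1 it was -0.61 and past the threshold (edgeR adjusted p = 0.0346).

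*Serpinb8* (ENSMUSG00000026315), an inhibitor of the proprotein convertase furin, measured 35.9, 39.7 and 48.3 CPM at day 5 and 53.3, 56.2 and 35.7 CPM at day 7. Mice 1 and 2 were higher and mouse 3 was lower at day 7, and the days overlapped. On the log2 scale the change was 0.23 ± 0.23 (95% interval -0.25 to 0.72; edgeR adjusted p = 0.568).

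Next come the members that act on proteases of leukocyte granules. *Serpinb1a* (ENSMUSG00000044734), an inhibitor of neutrophil elastase, proteinase 3 and cathepsin G, measured 10.7, 23.1 and 14.1 CPM at day 5 and 81.3, 60.4 and 25.9 CPM at day 7. The days did not overlap, although day 7 of mouse 3 was close to day 5 of mouse 2. The increase was 1.83 ± 0.35 on the log2 scale (edgeR adjusted p = 0.00210), and 1.47 to 2.17 when single libraries were left out. *Serpinb9* (ENSMUSG00000045827), the inhibitor of granzyme B that shields cells from cytotoxic granules, measured 14.0, 11.05 and 11.9 CPM at day 5 and 28.4, 25.0 and 20.1 CPM at day 7. Its libraries were the most even of the members that rose, with changes of 0.98, 1.12 and 0.72 on the log2 scale in mice 1, 2 and 3. Over the 3 mice the fitted log2 fold change was 0.99 ± 0.27 (edgeR adjusted p = 0.0214). With 89 counts at day 5 and 187 at day 7 it rested on few reads, and it missed the threshold without the day 5 library of mouse 1 (1.09, edgeR adjusted p = 0.0677), of mouse 2 (0.92, 0.122) or of mouse 3 (0.96, 0.118), or without the day 7 library of mouse 2 (0.98, 0.0706).

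*Serpinb6a* (ENSMUSG00000060147), an inhibitor of cathepsin G and trypsin-like proteases that is needed for hearing, varied least of the members between the day 7 libraries. It measured 172, 166 and 159 CPM at day 5 and 143, 140.3 and 158 CPM at day 7. All day 7 values were below all day 5 values, by a narrow margin in mouse 3. The log2 fold change was -0.17 ± 0.18 (95% interval -0.55 to 0.21; edgeR adjusted p = 0.595). Its exons share 628 bases with *1110046J04Rik*, 762 with *Nqo2* and 241 with *Ripk1* on the opposite strand, and whether the counting used strand is not given in the sources used here. The same holds for exon bases that *Serpinb2* (303, *Gm70772*), *Serpinb12* (68, *Gm71022*) and *Serpinb9* (14, *Gm36181*) share with genes on the opposite strand.

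*Serpinb3a* (ENSMUSG00000044594), of the squamous cell carcinoma antigen family, which can inhibit cysteine proteases such as cathepsin L, measured 12.8, 25.6 and 15.9 CPM at day 5 and 83.6, 54.2 and 17.6 CPM at day 7. It was higher at day 7 in each mouse, but day 7 of mouse 3 lay within the day 5 range and the days overlapped. The rise was 1.54 ± 0.40 on the log2 scale (edgeR adjusted p = 0.0149). This call was less firm than that of *Serpinb11*. With all 6 libraries it was lost under robust estimation in edgeR (adjusted p = 0.154), in glmTreat (0.0828) and with thinned counts (0.0623). It was also lost without the day 5 library of mouse 1 (1.35, edgeR adjusted p = 0.115) or mouse 3 (1.45, 0.0966) and without the day 7 library of mouse 1 (1.03, 0.0545) or mouse 2 (1.52, 0.0766). Its last 500 bases match *Serpinb3b* at 92.8% and *Serpinb3c* at 93.6% identity, so reads of these copies are uncertain.

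*Serpinb2* (ENSMUSG00000062345), or plasminogen activator inhibitor 2, which acts on urokinase, measured 106, 123 and 122 CPM at day 5. At day 7 it measured 173, 96.2 and 28.9 CPM, so that mouse 1 lay above and mice 2 and 3 below the whole day 5 range. The highest day 7 library held 6.00 times the lowest, the widest ratio of the members. The fitted log2 fold change was -0.23 ± 0.37 (95% interval -1.0 to 0.55; edgeR adjusted p = 0.761). Without the day 7 library of mouse 3 its sign turned, to 0.20 (edgeR adjusted p = 0.536), and without that of mouse 1 it was -0.88 (0.0524). *Serpinb2* and *Serpinb10* share 275 exon bases on the same strand, at the 3′ end of a *Serpinb2* transcript, and reads there cannot be told apart.

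*Serpinb5* (ENSMUSG00000067006), or maspin, a non-inhibitory serpin of epithelial cells known as a tumour suppressor, measured 167, 195 and 169 CPM at day 5 and 152, 89.9 and 61.2 CPM at day 7. The days did not overlap, and mouse 1 was closest to its day 5 value. The log2 fold change was -0.80 ± 0.25 (edgeR adjusted p = 0.0469), next to the threshold. Leaving out any library but the day 7 one of mouse 1 ended the call, with adjusted p between 0.0567 (without day 7 of mouse 3, log2 fold change -0.55) and 0.208 (without day 5 of mouse 2, -0.73). The others were day 5 of mouse 1 (-0.84, 0.129), day 5 of mouse 3 (-0.83, 0.135) and day 7 of mouse 2 (-0.72, 0.182). With all 6 libraries the call was also lost in 5 of 11 alternatives, with adjusted p of 0.0526 (DESeq2), 0.0575 (edgeR, robust), 0.0766 (edgeR after filterByExpr), 0.0772 (edgeR, thinned counts) and 0.469 (glmTreat), while with the mouse as a block the fall was -0.89 (edgeR adjusted p = 0.00205).

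**Figure D3:**
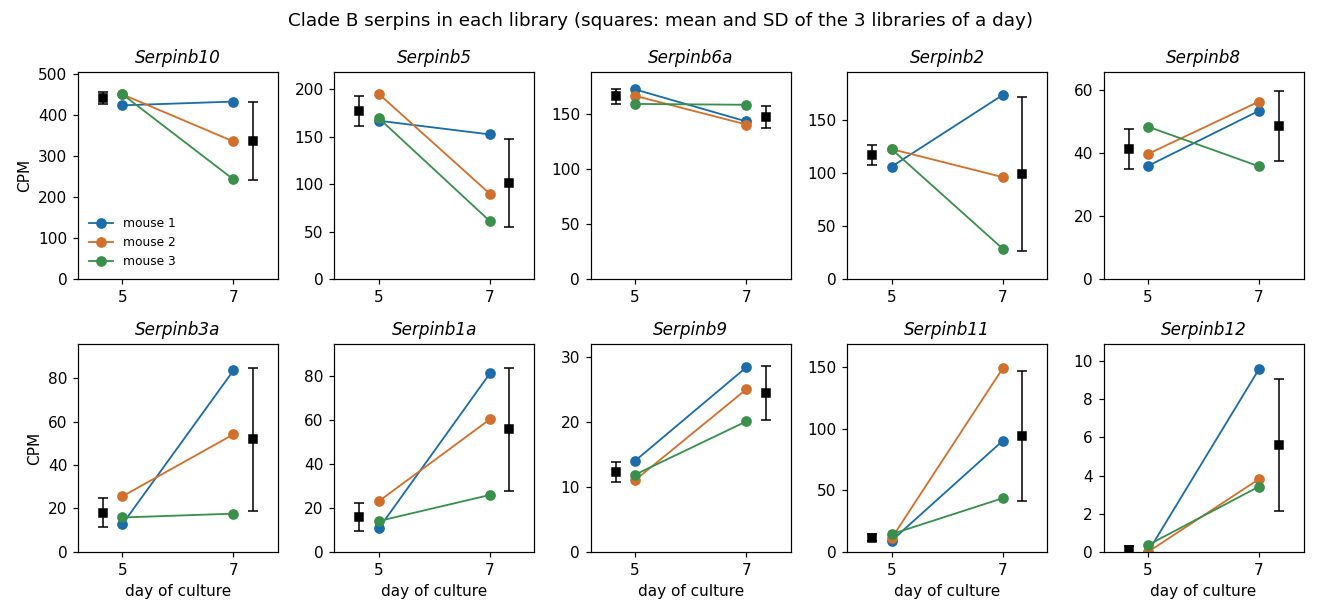
CPM of each member (y axis, from 0) on day 5 and day 7 of culture, with a line for each mouse and black squares for the mean ± SD of the 3 libraries of a day. On log2 CPM with a prior count of 2, each member spans a wider range at day 7 than at day 5. An example is *Serpinb2*, at 106 to 123 CPM on day 5 and 28.9 to 173 CPM on day 7. For *Serpinb12* the day 5 range rests on the prior count.

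How many members passed the threshold depended on the libraries used, as did the share of all genes tested. Without the day 5 library of mouse 1 or of mouse 3, *Serpinb1a*, *Serpinb11* and *Serpinb12* alone passed, 3 of 10 members, beside 5.81% and 5.83% of all genes. Without that of mouse 2, 4 members passed (*Serpinb3a* as well) beside 5.17%. Without the day 7 library of mouse 1 it was 6 members beside 16.1%, with a fall of *Serpinb10* gained and *Serpinb3a* lost. Without the day 7 library of mouse 2 it was 3 beside 6.86%, and without that of mouse 3 it was 5 beside 16.7%. With all libraries and a test against a log2 change of 0.6 (glmTreat), 3 members and 3.94% of all genes passed. The Wald test of DESeq2 called 5 members beside 9.99%, and counts thinned to the smallest library gave 4 beside 9.69%. Robust estimation in edgeR called 4 members, without *Serpinb3a* and *Serpinb5*, beside 12.1%. After filterByExpr, which removed *Serpinb12*, 4 members passed beside 16.3%. *Serpinb1a* and *Serpinb11* were past the threshold in each of these fits, and *Serpinb12* in each that tested it.

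The spread between mice, on log2 CPM with a prior count of 2, was wider at day 7 for all 10 members. For *Serpinb12*, with 0, 0 and 1 counts at day 5, the day 5 range rests on the prior count. The median log2 range between the highest and lowest library was 0.37 at day 5 and 1.30 at day 7 for the members, against 0.30 and 0.62 for the 8172 genes with at least 10 CPM. *Serpinb12*, with a mean of 0.120 CPM at day 5 and 5.61 CPM at day 7, is not among these genes. At day 7 the library of mouse 3 was the lowest for 9 of the 10 members, against 39.1% of those 8172 genes. The exception was *Serpinb6a*, which was highest in mouse 3. The library of mouse 1 was the highest for 7 members, against 30.2% of those genes. The sum of the squamous markers followed the same order at day 7, at 8717, 7691 and 5787 CPM in mice 1, 2 and 3. Its largest part was *Krt6a*, at 5098, 4136 and 3675 CPM, and single markers did not all keep this order. *Krt13* was highest in mouse 2 (718, 837 and 392 CPM) and *Krt4* ran the other way (15.7, 103 and 106 CPM). The part of these markers was not tested.

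Summed over the 10 members, clade B serpin transcripts were 950, 1043 and 1005 CPM at day 5 and 1247, 1010 and 637 CPM at day 7. The total was thus higher in mouse 1, nearly level in mouse 2 and lower in mouse 3. Shares of this total differed between the days in the same direction in each mouse for 8 of the 10 members, lower for *Serpinb5* and *Serpinb10* and higher for the others except *Serpinb2* and *Serpinb6a*, which were mixed. *Serpinb10* held 43.1% to 44.7% of it at day 5 and 33.2% to 38.1% at day 7. *Serpinb5* went from 16.8% to 18.7% at day 5 to 8.90% to 12.2% at day 7. *Serpinb11* went from 0.955% to 1.43% at day 5 to 6.84% to 14.7% at day 7.

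**Figure D4:**
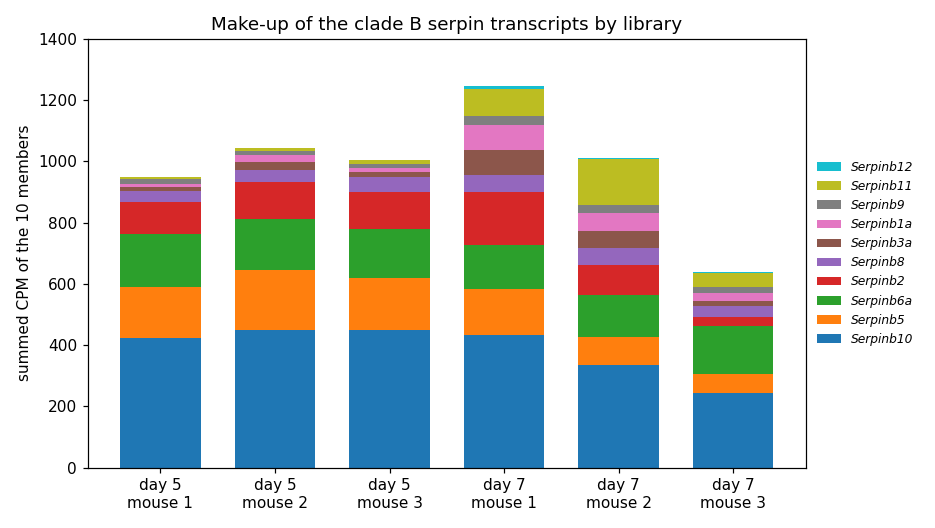
Summed CPM of the 10 members in each library (y axis, from 0), stacked by gene. *Serpinb11* is a thin band at day 5 (at most 1.43% of the sum) and a broad one at day 7 (up to 14.7%), while the day 7 sum runs from 637 to 1247 CPM.

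By mean level the order at day 5 was *Serpinb10*, *Serpinb5*, *Serpinb6a*, *Serpinb2*, *Serpinb8*, *Serpinb3a*, *Serpinb1a*, *Serpinb9*, *Serpinb11* and *Serpinb12*. The libraries of *Serpinb5* and *Serpinb6a* overlapped, as did each pair of neighbours from *Serpinb3a* to *Serpinb11*, and the other neighbours did not. At day 7 *Serpinb10* still led, *Serpinb6a* was next, and *Serpinb11* had moved from the ninth place to the fifth. Each pair of neighbours from *Serpinb6a* to *Serpinb8* overlapped at day 7 across the mice. Within each day 7 library, however, *Serpinb5*, *Serpinb2* and *Serpinb11* all lay above *Serpinb1a* and *Serpinb3a*. The order of *Serpinb5*, *Serpinb2* and *Serpinb11* among themselves differed between mice, as did that of *Serpinb1a* and *Serpinb3a*.

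Of the other 18 clade B genes listed, 8 had a count and 5 could be tested. *Serpinb6b*, a close relative of *Serpinb6a* on chromosome 13, was the only one past the threshold, beside 12.0% of all genes tested. It had 18, 6 and 19 counts at day 5 and 57, 106 and 20 at day 7, which gave 5.76 ± 2.40 and 22.8 ± 13.5 CPM (SD, n = 3) with no overlap. Its log2 fold change was 1.97 ± 0.42 (edgeR adjusted p = 0.00467), while *Serpinb6a* was at -0.17. This call was lost without day 5 of mouse 2 (1.69, edgeR adjusted p = 0.0572) and without day 7 of mouse 2 (1.44, 0.0679). *Serpinb1b*, whose sequence matches the last 500 bases of *Serpinb1a* at 90.8%, had 2 and 14 counts on the 2 days, a CPM ratio of 6.69 (95% interval 1.54 to 60.6; edgeR adjusted p = 0.107). *Serpinb3b* had 11 and 6 counts, *Serpinb7* 8 and 8, *Serpinb6c* 0 and 4, *Serpinb3d* 2 and 0, *Serpinb9b* 0 and 1, and *Serpinb13* 1 and 0. The remaining 10, of which 6 belong to the *Serpinb9* group, had no count in any library.

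Of 15 proteases known as targets of clade B serpins, 8 had a count, 7 were tested and 2 rose, beside 7.22% of all genes tested. *Klk8* or neuropsin, a trypsin-like protease of skin and brain, rose from 40.0 ± 3.16 to 107 ± 19.8 CPM (SD, n = 3), a change of 1.41 on the log2 scale (edgeR adjusted p = 0.000224). *Plat*, tissue plasminogen activator and a target of *Serpinb2*, had 1, 0 and 2 counts at day 5 and 16, 19 and 2 at day 7 (log2 fold change 3.37; edgeR adjusted p = 0.0106). The call of *Plat* was lost without day 5 of mouse 1 (edgeR adjusted p = 0.0605), day 5 of mouse 2 (0.0720) or day 7 of mouse 2 (0.0802), and filterByExpr removed the gene. Targets made by leukocytes, *Elane*, *Prtn3*, *Ctsg* and *Gzmb*, which *Serpinb1a*, *Serpinb6a* and *Serpinb9* inhibit, were at 0 in all 6 libraries. The other 5 proteases tested did not pass the threshold. On the log2 scale *Ctsl* (cathepsin L, target of *Serpinb3a*) was at 0.37, *Furin* (target of *Serpinb8*) at 0.66 and *Plau* (urokinase, target of *Serpinb2*) at 0.03. *Ctsh* was at -0.09 and *Casp1* at -0.12.

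Among 40 serpins of other clades, 13 had a count and 10 were tested. Of the 10, 4 rose and none fell, beside 7.22% of all genes tested that were higher and 4.82% that were lower. Among those that rose, *Serpina3m*, *Serpina3n* and *Serpine2* were higher by 6.23, 3.76 and 0.84 on the log2 scale in edgeR. *Serpina3m* had 1, 0 and 0 counts at day 5 in mice 1, 2 and 3, and 2, 51 and 51 at day 7. Its rise thus came from mice 2 and 3. *Serpina3n* had 1, 1 and 2 counts at day 5 and 5, 27 and 28 at day 7. The sizes of both changes depend on the prior count.

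Over the 6 libraries, the genes with at least 10 CPM whose log2 CPM ran most nearly parallel to *Serpinb11* were *Scel* (Pearson r = 0.998), which encodes sciellin of the cornified envelope, *Il13ra1* (0.997) and *Atp6v1e1* (0.995). The nearest to *Serpinb10* were *Pou2f1* (0.997), *Mfsd10* (0.996) and *Dglucy* (0.996). These are the highest of 8158 correlations over 6 libraries that share their day, and they carry no test.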

How the data were processed

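The authors deposited raw whole-number counts of reads for each Ensembl gene ID in each library, after aligning 3′ reads to GRCm39. The submitters' processing notes also name edgeR, while aligner, annotation and strand setting are not given in the sources used here. The 5 closing entries that name no gene (13.7% to 14.4% of reads at day 5, 9.12% to 9.74% at day 7) were left out. GENCODE vM39 named 43465 of 47643 IDs (91.2%).

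Testing was limited to the 15792 of 18687 genes with any count that reached 1 count in 2 or more libraries. Day 7 was set against day 5 with edgeR 4.0.16 (R 4.3.3; TMM scaling, glmQLFit and glmQLFTest, two-sided), using all 6 libraries without covariates, and p-values carry the Benjamini-Hochberg adjustment across the whole table. CPM use TMM-scaled library sizes. Likeness used log2 CPM with a prior count of 2. The script was tested on simulated data. Alternatives used limma 3.58.1 and DESeq2 1.42.0. The last 500 bases of transcripts were compared with BLAST 2.17.0, and matches of at least 90% identity were kept. Floors (3 counts) and the 95% intervals of CPM ratios by counting cover counting error only. The 95% intervals of log2 fold changes come from edgeR and include the estimated variation between libraries.

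Same-numbered libraries come from the same mouse, per the titles. Their deviations from the day means correlated at 0.14, -0.10 and 0.16 for mice 1, 2 and 3. No 2 libraries of a day agreed within sampling noise (smallest chi-square per degree of freedom 1.99).

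Members, gene lists and alternatives were chosen with earlier results of these data known. Named are all 10 members, each other clade B serpin with a count, up to 5 proteases and 5 serpins of other clades past the threshold, and the 3 genes most like the most abundant member and the member with the smallest p. *Ctsl*, *Furin*, *Plau*, *Ctsh*, *Casp1*, *Cd68*, *Cd14*, *S100a8*, *S100a9*, *Krt4*, *Krt6a*, *Krt8* and *Krt13* were named after their values were seen. So were the granule proteases at 0. A serpin of another clade is not reported here by name.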

Additional observations from a re-analysis of the deposited data

How the results depend on the processing

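The calls of *Serpinb1a* and *Serpinb11* held in all 17 alternatives (11 with all libraries, 6 without 1 library) and that of *Serpinb12* in the 16 that could test it, since filterByExpr removed it. *Serpinb9* held in 12, *Serpinb3a* in 10 and *Serpinb5* in 7 of 17. Scaling by DESeq2 size factors, upper quartile or library totals changed no member's call. Library totals moved the median of all genes to -0.10 and that of the members to 0.52. With glmTreat against 0.6, 622 of all genes, 3 members (*Serpinb1a*, *Serpinb11*, *Serpinb12*) and 2 serpins of other clades were past the threshold, against 1901, 6 and 4. With filterByExpr, 4 members, 1 protease and 2 serpins of other clades were past it, with fewer of each tested. With robust = TRUE, 4 members and 2 serpins of other clades passed, and limma voom called 2 other clade B serpins. Leaving out single libraries gave 797 to 2576 genes, 3 to 6 members, 0 to 1 other clade B serpins (1 and 2 at an unadjusted p under 0.05 in the edgeR fits with 0), 1 to 3 proteases and 2 to 4 serpins of other clades. The all-gene counts were 892, 797 and 890 without day 5 of mouse 1, 2 and 3, and 2472, 1045 and 2576 without day 7 of each. *Serpinb2* ranged from -0.88 without day 7 of mouse 1 to 0.20, a reversed sign, without day 7 of mouse 3. The causes were not tested. With the mouse as a replicate block, 2340 genes and 6 members (5 higher, 1 lower) were past the threshold, and no member's call changed. *Serpinb1a*, *Serpinb3a*, *Serpinb9* and *Serpinb11* had 22 to 51 counts per day 5 library, and power for smaller changes was not tested.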
